A study of Homo sapiens with 18 samples.

Results

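The transcripts of 9 amino acid transporter genes were followed in A375 cells exposed to IMD-0354: SLC7A11, SLC7A5, SLC3A2, SLC7A1, SLC1A5, SLC1A4, SLC38A1, SLC38A2 and SLC6A9. They were taken by symbol from the deposited expression table, and each of the 9 matched 1 of its 60504 Ensembl identifiers. All 9 passed the filter on low values, which kept the 14936 genes that reached 1 TPM in at least 3 of 18 libraries. TPM is a transcript level divided by transcript length and scaled to a fixed total per library. A375 is an established human melanoma line with an activating BRAF mutation, and IMD-0354 is described as an inhibitor of IKKβ, a kinase that switches on NF-κB. The 6 groups held 3 libraries each. At 24 h these were untreated cells and cells given 0.32, 0.63 or 1.25 µM IMD-0354, and at 48 h they were untreated cells and cells given 0.63 µM. No vehicle is named for the untreated cells. Nothing says that the libraries of a group were separate cultures, so the p-values rest on the spread among libraries alone, which may be technical.

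Transporters decide which amino acids a cell can draw from its surroundings. SLC3A2 (4F2hc, CD98) is a heavy chain that carries light chains to the plasma membrane: with SLC7A5 (LAT1) it forms an exchanger of leucine and other large neutral amino acids, and with SLC7A11 (xCT) it forms system xc-, which brings in cystine in exchange for glutamate and so feeds glutathione synthesis. SLC7A1 (CAT1) admits arginine and lysine. SLC1A5 (ASCT2) and SLC1A4 (ASCT1) exchange small neutral amino acids, glutamine mainly through the first. SLC38A1 (SNAT1) and SLC38A2 (SNAT2) pump in glutamine and alanine with sodium, and SLC6A9 (GLYT1) takes up glycine. When amino acids run short or proteins misfold, cells raise the translation of ATF4, a transcription factor that acts with C/EBP partners on many transporter and amino acid synthesis genes.

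Depth is unknown, because TPM keeps no read counts. Between 14647 and 17029 genes were above 0 in a library, and no pair among the 153 pairs of libraries was identical. The melanocyte lineage factors SOX10 (8.29 to 34.7 TPM) and MITF (2.87 to 16.8 TPM) were present in all 18 libraries, as was AXL (37.1 to 144 TPM), a receptor of dedifferentiated melanoma. The pigment genes TYR and TYRP1 were at 0 throughout, and MLANA stayed at or under 2.37 TPM. The leukocyte genes PTPRC, CD3E and CD79A and the endothelial genes VWF and CDH5 were at 0 in all 18 libraries. Of the keratinocyte and fibroblast markers, KRT10 (27.65 to 102.57 TPM) and PDGFRB (0 to 12.8 TPM) were found, and KRT1, KRT5, KRT14, COL1A1, COL1A2, DCN and LUM stayed at or under 1.14 TPM. The 4 most abundant transcripts, all on chromosome 21, held 13.1 to 24.8% of all TPM, with group means between 14.3% at 0.63 µM for 24 h and 23.6% at 0.63 µM for 48 h, and every other value is a share of what remained.

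Of the 9 transcripts 2 passed the test at 24 h against untreated cells, and both were higher. SLC1A4 rose at 0.63 and at 1.25 µM, and SLC3A2 rose at 1.25 µM. The tests were moderated linear models fitted with limma to log2(TPM + 1) of all 18 libraries, two-sided, with Benjamini-Hochberg adjustment over all 14936 genes and a threshold of 0.05. Differences are on this log2 scale, which understates the change of low genes, and are given with their standard error (SE). At 0.32 µM none of the 9 passed, against 0.0268% of all genes tested in either direction. At an unadjusted p under 0.05 there were 0 members and 912 genes in all, and the median difference of the 9 was 0.03. At 0.63 µM 1 of the 9 was called higher, against 1.36% of all genes, and the 9 differences were all above 0, with a median of 0.60 against 0.00 over all genes. At 1.25 µM 2 of the 9 were called higher, against 4.94% of all genes, and 8 of the 9 lay above 0, with a median of 0.31 against -0.01. The 3 doses share their 3 untreated libraries. At 48 h none of the 9 passed at 0.63 µM, against 1.95% of all genes called higher and 5.68% called lower. Of the 9, 7 lay above 0, where 38.6% of all genes did, with a median of 0.47 against -0.15. There, 3 members and 3172 genes in all had an unadjusted p under 0.05.

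Treated and untreated libraries did not overlap for some members. At 0.63 µM for 24 h, 5 of the 9 had all 3 treated libraries above all 3 untreated ones (SLC7A11, SLC7A5, SLC1A5, SLC1A4 and SLC6A9), where 10.0% of all genes did. At 1.25 µM this held for SLC3A2 and SLC1A4, against 12.4% of all genes, and SLC38A2 had all 3 treated libraries below, against 13.7%. At 0.63 µM for 48 h it held for SLC7A11 and SLC1A4, against 9.23%, and at 0.32 µM for SLC7A11 alone, against 4.08%.

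**Figure D1:**
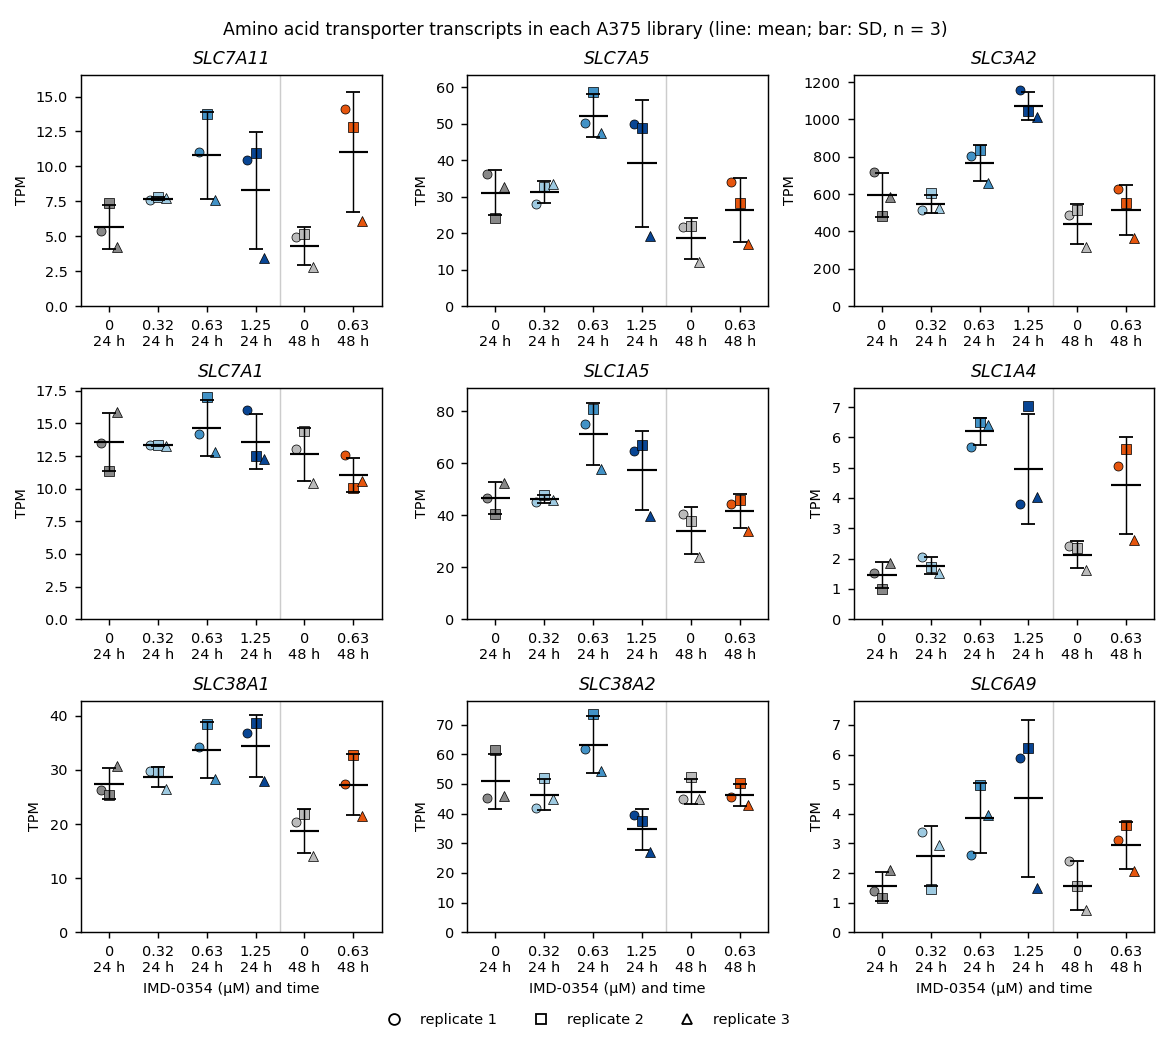
Level in TPM (vertical axes, linear from 0) of each of the 9 transporters in every library, by IMD-0354 dose and time (horizontal axes), with points shaped by replicate, a line at the group mean and a bar of 1 SD (n = 3). SLC1A4 stands between 1.01 and 1.85 TPM in untreated cells at 24 h and between 5.69 and 6.5 TPM at 0.63 µM, while SLC7A1 stays between 10.02 and 17.01 TPM in all 18 libraries.

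Across genes the levels spanned a wide range. SLC3A2 was the most abundant of the 9, with a median of 594 TPM over the 18 libraries, followed by SLC1A5 and SLC38A2 at 46.0 and 45.4 TPM. SLC7A5 (32.6 TPM) and SLC38A1 (28.2 TPM) came next, then SLC7A1 (13.1 TPM) and SLC7A11 (7.58 TPM), with SLC1A4 and SLC6A9 lowest at 2.51 and 2.505 TPM. TPM divides by transcript length whereas 3′ end libraries sample transcripts by their ends, so this order holds on the deposited per-length scale alone. SLC6A9 varied the most between libraries, 8.42-fold from lowest to highest, and SLC7A1 the least, 1.70-fold.

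Among the exchangers of small neutral amino acids, SLC1A4 had the largest differences of the 9 at 0.63 and 1.25 µM for 24 h. The gene lies on the plus strand at chr2:64988477-65023865 (GENCODE 29, GRCh38). Its 3 untreated libraries at 24 h read 1.51, 1.01 and 1.85 TPM, and those at 0.32 µM read 2.06, 1.71 and 1.52 TPM. At 0.63 µM they read 5.69, 6.5 and 6.4 TPM, and at 1.25 µM 3.81, 7.04 and 4.03 TPM. Every library at the upper 2 doses stood above every untreated library and every library at 0.32 µM. The means were 6.20 ± 0.442 TPM at 0.63 µM and 4.96 ± 1.80 TPM at 1.25 µM against 1.46 ± 0.423 TPM (SD, n = 3), ratios of 4.25 and 3.41. The differences were 1.56 (SE 0.281, limma adjusted p = 0.0120) and 1.25 (SE 0.281, limma adjusted p = 0.00897). The first was lost without 0.63 µM replicate 3 (adjusted p = 0.0614), and both were lost when only the 2 compared groups entered the fit (adjusted p = 0.128 and 0.0871). SLC1A4 was also higher at 0.63 than at 0.32 µM, by 1.38 (SE 0.281, limma adjusted p = 0.0361), where 0.402% of all genes were called higher. That call was lost whichever library of the pair was left out (adjusted p = 0.0733 to 0.156).

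At 48 h the treated libraries for SLC1A4 spread more widely. Untreated cells read 2.42, 2.34 and 1.61 TPM, and cells at 0.63 µM read 5.04, 5.62 and 2.6 TPM. The groups did not overlap, but the lowest treated library stood only just above the highest untreated one, and the difference of 0.76 (SE 0.281) did not pass (limma adjusted p = 0.122). The effect of 0.63 µM at 48 h minus that at 24 h was -0.81 (95% interval -1.65 to 0.04, limma adjusted p = 0.440), so a difference between the times was not established. Ordered by mean, the 6 groups ran from 0.63 µM at 24 h through 1.25 µM and 0.63 µM at 48 h to untreated cells at 48 h, 0.32 µM and untreated cells at 24 h. Of the neighbours in this order, only 0.63 µM at 48 h and untreated cells at 48 h did not overlap.

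SLC1A5, the main glutamine exchanger of this family, had higher means at the same doses but passed no test. Its untreated libraries at 24 h read 46.65, 40.36 and 52.53 TPM, those at 0.63 µM 75.1, 80.69 and 57.72 TPM, and those at 1.25 µM 64.84, 67.16 and 39.63 TPM. All libraries at 0.63 µM were above the untreated ones, whereas at 1.25 µM replicate 3 was below all of them. The difference at 0.63 µM was 0.60 (95% interval 0.10 to 1.09, limma adjusted p = 0.189), and at 1.25 µM it was 0.26 (95% interval -0.23 to 0.76, limma adjusted p = 0.526).

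Set against SLC1A5 in the same library, SLC1A4 stood higher in all libraries at the 2 upper doses for 24 h than in untreated cells of that time. The TPM ratio of SLC1A4 to SLC1A5 was 0.0309 ± 0.00526 in untreated cells at 24 h, 0.0381 ± 0.00662 at 0.32 µM, 0.0891 ± 0.0190 at 0.63 µM and 0.0884 ± 0.0257 at 1.25 µM (SD, n = 3). At 48 h it was 0.0631 ± 0.00422 in untreated cells and 0.104 ± 0.0242 at 0.63 µM. At 0.32 µM the libraries overlapped with the untreated ones, and at 0.63 and 1.25 µM for 24 h and at 0.63 µM for 48 h they did not. Exact permutation tests, two-sided, on log2 ratios gave p = 0.2 at 0.32 µM (0.3 adjusted) and p = 0.1 for each of the other 3 comparisons, the smallest that 3 against 3 libraries can give, and 0.171 after Benjamini-Hochberg adjustment over the 24 ratio tests made.

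SLC3A2, the shared heavy chain, rose at the highest dose. Its locus is on the plus strand at chr11:62856102-62888875. Untreated libraries at 24 h read 715.91, 485.46 and 584.43 TPM, and libraries at 1.25 µM read 1156.52, 1044.06 and 1014.64 TPM. The lowest treated library stood well above the highest untreated one, and the 3 treated libraries lay close together. The means were 1072 ± 74.9 and 595 ± 116 TPM (SD, n = 3), a ratio of 1.80, with a difference of 0.86 (SE 0.212, limma adjusted p = 0.0151). This call was lost without 1.25 µM replicate 1 (adjusted p = 0.0516), without untreated replicate 2 (0.0557) and in a fit of the compared groups alone (0.0564). At 0.63 µM the libraries read 804.5, 837.76 and 657.94 TPM and overlapped the untreated ones, with a difference of 0.37 (SE 0.212, limma adjusted p = 0.381). At 0.32 µM the difference was -0.10 (95% interval -0.55 to 0.35), and at 48 h it was 0.23 (95% interval -0.22 to 0.67). In the order of group means only the step from 1.25 to 0.63 µM at 24 h separated without overlap.

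SLC7A5, the leucine-transporting light chain, had a different order of group means from its heavy chain. Untreated libraries at 24 h read 36.29, 24.28 and 32.67 TPM, and those at 0.63 µM read 50.06, 58.81 and 47.55 TPM. At 1.25 µM replicates 1 and 2 read 49.78 and 48.71 TPM, near the level at 0.63 µM, and replicate 3 read 19.13 TPM, below every untreated library. The difference was 0.74 at 0.63 µM (95% interval 0.03 to 1.45, limma adjusted p = 0.254) and 0.23 at 1.25 µM (95% interval -0.48 to 0.93, limma adjusted p = 0.729). A fall from 0.63 to 1.25 µM was not established (-0.51, 95% interval -1.22 to 0.19, limma adjusted p = 0.506), and these libraries overlapped. Leaving out 1 library gave -0.74 to -0.075 for this step. At 48 h the untreated cells read 21.71, 21.84 and 12.2 TPM and the treated cells 34.0, 28.25 and 16.92 TPM, and the groups overlapped. The pseudogene SLC7A5P1 reached at most 2.43 TPM and SLC7A5P2 was at 0, so little of the signal was assigned to these copies.

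The TPM ratio of SLC7A5 to SLC3A2 was 0.0522 ± 0.00322 in untreated cells at 24 h, 0.0682 ± 0.00530 at 0.63 µM and 0.0362 ± 0.0151 at 1.25 µM (SD, n = 3). The 1.25 µM libraries were below the untreated ones for replicates 1 and 2 as well, at 0.0430 and 0.0467, and furthest below for replicate 3, at 0.0189. The ratio was thus higher than in untreated cells of 24 h at the middle dose and lower at the top dose, with no overlap in either case (exact permutation p = 0.1 each, 0.171 adjusted). Untreated cells at 48 h read 0.0444, 0.0426 and 0.0387, all below the untreated libraries at 24 h. Replicate 1 at 1.25 µM lay within that 48 h range, replicate 2 above it and replicate 3 below it. With 0.63 µM for 48 h the ratio was 0.0505 ± 0.00394 (SD, n = 3), without overlap with untreated cells of that time.

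SLC7A11, the cystine light chain, had its highest values at 0.63 µM. Untreated libraries at 24 h read 5.4, 7.38 and 4.2 TPM, those at 0.32 µM 7.57, 7.79 and 7.73 TPM, and those at 0.63 µM 11.02, 13.75 and 7.58 TPM. At 1.25 µM replicates 1 and 2 read 10.44 and 10.94 TPM and replicate 3 read 3.46 TPM, the lowest of the 24 h libraries. The difference at 0.63 µM for 24 h was 0.82 (95% interval 0.01 to 1.62, limma adjusted p = 0.272). At 48 h the untreated libraries read 4.98, 5.15 and 2.77 TPM and the treated ones 14.12, 12.82 and 6.1 TPM, without overlap. The means were 4.30 ± 1.33 and 11.0 ± 4.30 TPM (SD, n = 3), a ratio of 2.56, with a difference of 1.14 (SE 0.380, limma adjusted p = 0.0824). The test was passed in 5 of 17 other settings, among them without 0.63 µM 48 h replicate 3 (1.48, adjusted p = 0.0484) and under median-of-ratios scaling (1.33, adjusted p = 0.0317). Leaving out 1 library gave adjusted p from 0.0484 to 0.245. In the same 48 h libraries the ratio of SLC7A11 to SLC3A2 was 0.00967 ± 0.000763 without and 0.0208 ± 0.00356 with IMD-0354 (exact permutation p = 0.1, 0.171 adjusted), and the groups did not overlap. At 24 h it was 0.00998 ± 0.00453 in untreated cells. At 0.32, 0.63 and 1.25 µM it was 0.0141 ± 0.00103, 0.0139 ± 0.00245 and 0.00764 ± 0.00373 (SD, n = 3). Each of these doses overlapped the untreated cells (exact permutation p = 0.4, 0.3 and 0.6).

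**Figure D2:**
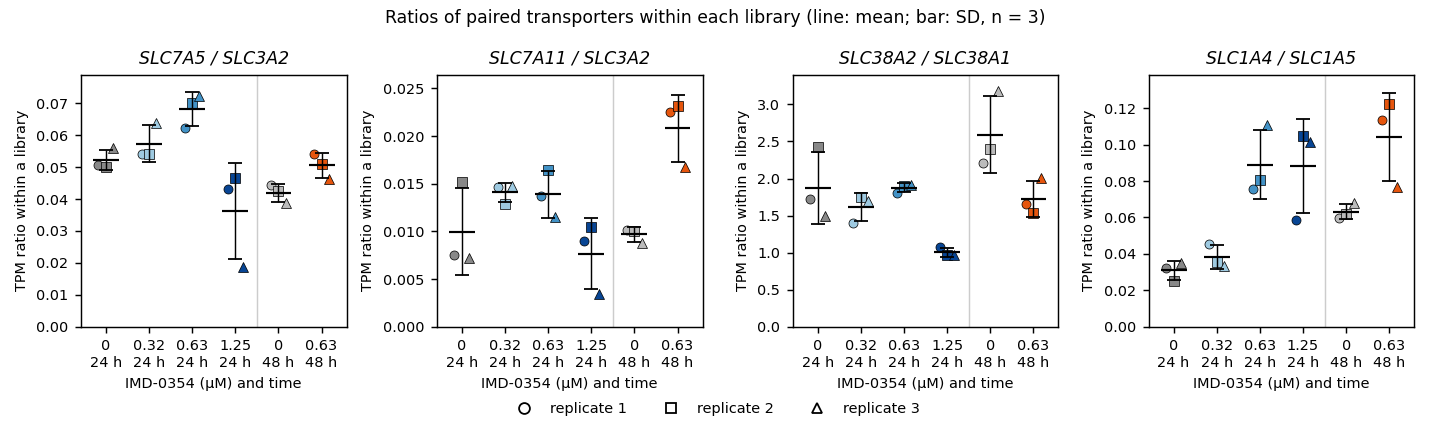
TPM ratio of 2 transporters within each library (vertical axes, linear from 0) by IMD-0354 dose and time (horizontal axes), with points shaped by replicate, a line at the mean and a bar of 1 SD (n = 3). The ratio of SLC38A2 to SLC38A1 is between 0.961 and 1.08 in the 3 libraries at 1.25 µM, below all other libraries. That of SLC1A4 to SLC1A5 is 0.0588 or more in all libraries at 0.63 and 1.25 µM, and also in untreated cells at 48 h (0.0596 to 0.0678).

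SLC7A1, the arginine and lysine transporter, showed no detectable difference in any comparison. Its group means lay between 11.0 ± 1.33 TPM at 0.63 µM for 48 h and 14.7 ± 2.14 TPM at 0.63 µM for 24 h, and every pair of neighbouring groups overlapped. Against untreated cells of the same time the differences were -0.02, 0.11, 0.00 and -0.17 for 0.32, 0.63 and 1.25 µM at 24 h and 0.63 µM at 48 h. The 95% intervals of the 4 differences reached from -0.58 at the lowest to 0.52 at the highest.

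The sodium-coupled pair SLC38A1 and SLC38A2, whose genes lie on the same strand at chr12:46183063-46270017 and chr12:46358189-46372867, separated at the highest dose. SLC38A2 read 61.86, 73.4 and 54.31 TPM at 0.63 µM and 39.66, 37.58 and 26.89 TPM at 1.25 µM, against 45.28, 61.52 and 45.81 TPM in untreated cells. All libraries at 1.25 µM were below all libraries of both other groups. From 0.63 to 1.25 µM SLC38A2 fell by 0.85 on the log2 scale (SE 0.184, limma adjusted p = 0.0294), where 1.04% of all genes were called lower. It was the only one of the 9 called between these doses, and the call was lost without 1.25 µM replicate 3 (adjusted p = 0.135), without 0.63 µM replicate 1 (0.0899) or 2 (0.119) and in a fit of the compared groups alone (0.129). Against untreated cells the difference at 1.25 µM was -0.54 (SE 0.184, limma adjusted p = 0.0689), which did not pass. It passed with TPM rescaled without the 4 chromosome 21 transcripts (-0.60, adjusted p = 0.0338) and with the replicate number as a block (adjusted p = 0.0274). These were 2 of 18 other settings, and leaving out 1 library gave adjusted p from 0.0623 to 0.257.

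SLC38A1 had similar means at both doses. It read 26.37, 25.39 and 30.69 TPM in untreated cells, 34.32, 38.56 and 28.34 TPM at 0.63 µM and 36.81, 38.68 and 27.97 TPM at 1.25 µM, and the 3 groups overlapped. Its difference from 0.63 to 1.25 µM was 0.03 (95% interval -0.41 to 0.47). The TPM ratio of SLC38A2 to SLC38A1 was 1.88 ± 0.485 in untreated cells, 1.62 ± 0.186 at 0.32 µM, 1.87 ± 0.0624 at 0.63 µM and 1.00 ± 0.0643 at 1.25 µM (SD, n = 3). The 3 values at 1.25 µM were 1.08, 0.972 and 0.961 in replicates 1 to 3, so all 3 libraries shared the low ratio. At 48 h the ratio was 2.59 ± 0.517 in untreated cells and 1.73 ± 0.243 at 0.63 µM, again without overlap. Exact permutation tests gave p = 0.1 for each of these separations (0.171 adjusted). The 48 h difference came with SLC38A1 at 20.36, 21.84 and 14.16 TPM in untreated and 27.49, 32.74 and 21.5 TPM in treated cells (0.52, SE 0.207, limma adjusted p = 0.152), while SLC38A2 differed by -0.03 (95% interval -0.42 to 0.36).

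SLC6A9, the glycine transporter, was low and variable. Untreated libraries at 24 h read 1.38, 1.17 and 2.11 TPM, those at 0.63 µM 2.61, 4.98 and 3.96 TPM, and those at 1.25 µM 5.88, 6.23 and 1.48 TPM. The 0.63 µM libraries stood above all untreated ones, and at 1.25 µM replicates 1 and 2 were the highest of all 18 while replicate 3 lay among the untreated. The difference at 1.25 µM was 0.98 (SE 0.401, limma adjusted p = 0.131), and without replicate 3 it was 1.48 (adjusted p = 0.0229). Over all single libraries left out, the adjusted p ran from 0.0229 to 0.363. The long non-coding gene AL139220.2, on the opposite strand of this locus, ranged up to 14.84 TPM, and its group means of 6.22 ± 5.88 TPM in untreated cells and 7.08 ± 7.44 TPM at 1.25 µM (SD, n = 3) were above those of SLC6A9. Whether the counting used strand is not given in the sources used here. Without strand-aware counting the reads of the overlapping genes could not be told apart.

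**Figure D3:**
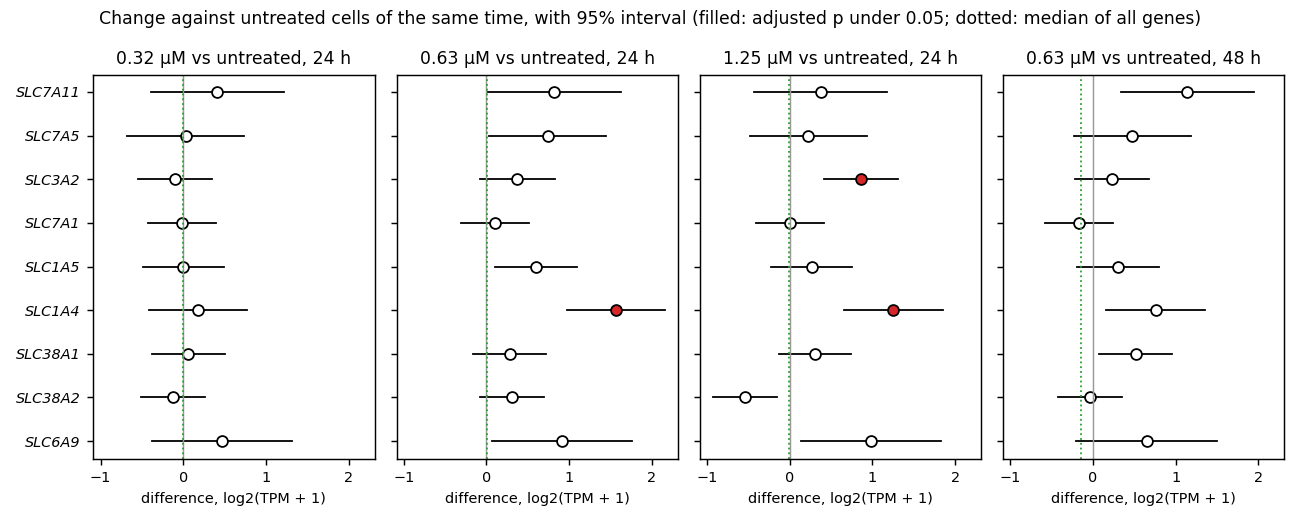
Difference on the log2(TPM + 1) scale (horizontal axes) of each transporter (vertical axis) against untreated cells of the same time, with its 95% interval from limma, in 4 panels by dose and time. Filled points mark an adjusted p under 0.05 and the dotted line the median over all 14936 genes: the filled points are SLC1A4 at 0.63 and 1.25 µM and SLC3A2 at 1.25 µM, all at 24 h.

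At 48 h the scale of the libraries entered the comparison. The median difference over all genes was -0.15 with the deposited TPM, and rescaling the libraries to a common median of gene ratios moved it by 0.15. Relative to that median, the members stood at 1.29 (SLC7A11), 0.90 (SLC1A4), 0.79 (SLC6A9), 0.66 (SLC38A1), 0.62 (SLC7A5), 0.45 (SLC1A5), 0.37 (SLC3A2), 0.11 (SLC38A2) and -0.03 (SLC7A1). With median-of-ratios scaling 3 of the 9 were called higher: SLC7A11 (limma adjusted p = 0.0317), SLC1A4 (0.0473) and SLC38A1 (0.0237). The same scaling moved the share of higher calls among all genes called at 48 h from 25.5% to 49.4%. At 24 h, rescaling without the 4 chromosome 21 transcripts moved the share of higher calls at 0.63 µM from 62.3% to 44.0%, and SLC1A4 remained the 1 member called there. At 1.25 µM the same rescaling left 2 members called higher and added 1 called lower, SLC38A2.

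Untreated cells at 48 h were compared with those at 24 h. The 4 chromosome 21 transcripts held 14.4 to 20.2% of TPM in untreated cells at 24 h and 22.6 to 24.6% at 48 h. Time and library make-up therefore could not be told apart here. With TPM rescaled without these transcripts, the median difference of the 9 was -0.27, against 0.04 over all genes. The values that follow are on the deposited TPM. None of the 9 passed (0.0134% of all genes did, and 3 members and 1181 genes in all had an unadjusted p under 0.05), and 8 of the 9 had differences below 0, with a median of -0.34 against -0.03 over all genes. SLC7A5 (-0.74) and SLC38A1 (-0.54) had all 48 h libraries below all 24 h libraries, where 7.65% of all genes did. For the effect of 0.63 µM at 48 h minus that at 24 h none of the 9 passed either (0.0335% of all genes did, and 0 members and 1784 genes in all had an unadjusted p under 0.05).

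Replicate 3 had low transporter values in several groups. It was the lowest library for 8 of the 9 members at 1.25 µM, in untreated cells at 48 h and at 0.63 µM for 48 h, where it was the lowest for 39.0%, 40.0% and 43.6% of all genes tested. At 0.63 µM for 24 h it was the lowest for 7 of the 9 (36.4% of all genes). In untreated cells at 24 h replicate 3 was the lowest for 1 of the 9 (28.7%), and at 0.32 µM for 3 (27.4%). Untreated replicate 2 at 24 h was the lowest for 7 of the 9 (35.5%). Replicate 3 had the smallest share of TPM on the 13 mitochondrial mRNAs in all 6 groups: 2.64% against 5.91 and 6.20% at 0.63 µM for 24 h, and 2.94% against 4.72 and 4.72% at 1.25 µM. Its share was 2.30% against 4.54 and 3.09% in untreated cells at 24 h, and 5.02% against 5.30 and 5.08% at 0.32 µM. The part of this in the transporter values was not tested. Without these 6 libraries, a choice made after seeing the data that left 2 libraries a group, SLC3A2 (0.90, limma adjusted p = 0.0248), SLC1A4 (1.47, 0.0301) and SLC6A9 (1.63, 0.0370) were called at 1.25 µM and SLC7A11 (1.25, 0.0262) at 48 h. SLC1A4 at 0.63 µM (1.66, 0.0659) and SLC38A2 between 0.63 and 1.25 µM (-0.79, 0.195) were no longer called.

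**Figure D4:**
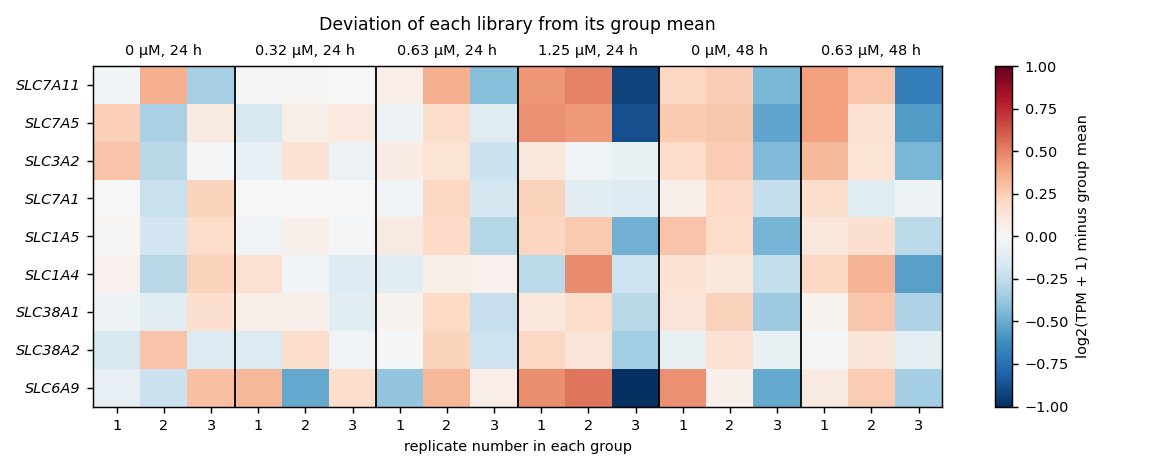
Deviation of log2(TPM + 1) from the group mean (colour, blue below and red above) for each transporter (rows) in each library (columns, replicates 1 to 3 within the 6 groups). Replicate 3 is blue for most transporters at 1.25 µM and in both 48 h groups, and SLC3A2 and SLC7A1 deviate least at 1.25 µM.

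Sequence at the start sites was examined for letters that 2 known regulators of transporter genes recognise. RefSeq windows from 250 bases before to 50 after a transcription start (GRCh38.p14) were found for 8 of the 9 members, 14 windows in all, and none for SLC7A11. The core of the C/EBP-ATF response element, through which ATF4 acts, was searched as TGATGNAA on both strands. It was in 5 of the 14 windows (35.7%), each of a different member, against 1270 of 35116 windows of all genes (3.62%). The members were chosen as transporters, with earlier results of these data known. This contrast and that for the antioxidant element below are therefore descriptions and carry no test. The 5 matches are shown because they include both genes that passed a test against untreated cells. Each line gives 30 bases 5′ to 3′ on the strand of the gene, with the matched letters in capitals.
SLC1A4 (chr2:64989381-64989410, plus strand): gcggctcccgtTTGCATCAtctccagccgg
SLC3A2 (chr11:62881719-62881748, plus strand): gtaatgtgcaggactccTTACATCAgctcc
SLC38A1 (chr12:46266502-46266531, minus strand): tcagacccgaaTGATGAAAagggatcagct
SLC7A1 (chr13:29595663-29595692, minus strand): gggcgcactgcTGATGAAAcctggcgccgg
SLC1A5 (chr19:46784893-46784922, minus strand): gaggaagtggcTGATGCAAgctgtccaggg
SLC1A4 and SLC3A2 carry the core on the opposite strand, so it reads as its reverse complement. SLC38A1, SLC7A1 and SLC1A5 carry it too and passed no test on the deposited TPM. SLC38A2, which was called between 0.63 and 1.25 µM, had no match in its window. Sequence outside the windows was not searched, so a lack of the core in a gene is not shown. A link between a match and a change was not tested. A match describes the letters only and shows no binding.

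The core of the antioxidant response element, which NRF2 recognises and which is well known upstream of SLC7A11, was searched as TGACNNNGC on both strands. It was in 4 of the 14 windows (28.6%) against 13.3% of all windows. The matches of SLC3A2 and of its partner SLC7A5 are shown in the same form.
SLC3A2 (chr11:62881652-62881681, plus strand): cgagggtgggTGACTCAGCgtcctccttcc
SLC7A5 (chr16:87869490-87869519, minus strand): gcggggttccTGACGCAGCtgcgggcggcg
The other matches were in windows of SLC7A1 and SLC1A5.

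Several regulators of transporter genes passed at 0.63 and 1.25 µM for 24 h, as SLC1A4 did, and at 48 h, where SLC1A4 did not. This list, like those of enzymes and other transporters below, was chosen with earlier results of these data known. Its counts beside the shares of all genes are therefore a description, and a link to the transporters was not tested. Of 20 regulators of transporter genes and proteins, all measured, 0 passed at 0.32 µM, 6 were higher at 0.63 µM and 6 at 1.25 µM for 24 h, and 7 were higher at 0.63 µM for 48 h, with none lower. Against 1.36%, 4.94% and 1.95% of all genes called higher, these were CEBPB, CEBPG, DDIT3, MYC, SESN2 and TRIB3 at both upper doses at 24 h, and ATF3, ATF4, CEBPB, CEBPG, DDIT3, SESN2 and TRIB3 at 48 h. The list median was 0.38 at 0.63 µM, 0.24 at 1.25 µM and 0.25 at 48 h, against 0.00, -0.01 and -0.15 over all genes. DDIT3, which encodes the stress factor CHOP, read 18.35, 14.01 and 12.45 TPM in untreated cells and 214.31, 224.07 and 252.29 TPM at 1.25 µM, a difference of 3.87 (SE 0.356, limma adjusted p = 6.0e-06). SESN2, a leucine-binding brake on mTORC1, differed by 2.55 at 1.25 µM (SE 0.285, limma adjusted p = 3.9e-05). TRIB3, a pseudokinase target of ATF4 and CHOP, differed by 2.06 at 0.63 µM, 2.31 at 1.25 µM and 2.23 at 48 h. At 0.32 µM the largest difference in the list was that of ATF3, -0.47 (SE 0.379, limma adjusted p = 0.910).

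Enzymes that use imported amino acids gave 6 higher calls at 0.63 µM (ASL, ASNS, CBS, CHAC1, GPT2 and SHMT2) and 5 at 1.25 µM (ASNS, BCAT2, CHAC1, GOT1 and ODC1) among 28 of 30 measured, and none lower, against 1.36% and 4.94% of all genes called higher. At 48 h 4 were higher (ASNS, CHAC1, CTH and GOT1), against 1.95% of all genes, and 2 were lower (GOT2 and SHMT1), against 5.68%, and at 0.32 µM none passed. ASNS, which makes asparagine with glutamine as nitrogen donor, read 31.13, 40.01 and 54.56 TPM in untreated cells and 96.76, 110.46 and 150.48 TPM at 0.63 µM, a difference of 1.50 (SE 0.272, limma adjusted p = 0.0127) whose call was lost without 0.63 µM replicate 3 (adjusted p = 0.0801). At 1.25 µM it read 84.23, 103.8 and 49.17 TPM, so replicate 3 lay among the untreated libraries (0.87, SE 0.272, limma adjusted p = 0.0495), and that call was lost without untreated replicate 1 or 2 or 1.25 µM replicate 1 or 2 (adjusted p up to 0.194). CHAC1, which degrades glutathione, read 11.27, 0.16 and 4.88 TPM in untreated cells and 37.16, 28.81 and 29.37 TPM at 0.63 µM (2.90, SE 0.570, limma adjusted p = 0.0176). The CHAC1 call was lost without 0.63 µM replicate 1 or 3 (adjusted p up to 0.0801), and its difference ran from 1.41 to 3.69 over the other settings tried. CTH, which makes cysteine from cystathionine, differed by 1.80 at 48 h (SE 0.505, limma adjusted p = 0.0387), a call lost whichever of the 6 libraries was left out (adjusted p = 0.0501 to 0.158), with differences of 0.92 to 2.46 over the settings tried. At 48 h the calls of ASNS and CHAC1 were lost without untreated replicate 3, and that of CHAC1 also without 0.63 µM replicate 2 (adjusted p up to 0.0557 and 0.0552). Leaving out single libraries also lost the calls of ASL (adjusted p up to 0.187) and CBS (up to 0.142) at 0.63 µM for 24 h. At 1.25 µM it lost that of ODC1 (up to 0.144), and the BCAT2 call was lost without 1.25 µM replicate 3 (0.0623).

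Few of the other amino acid transporters passed a test. Of 54 at the plasma membrane, lysosome and mitochondrion 27 were measured. None passed at 0.32 or 0.63 µM for 24 h, 1 was higher and 2 lower at 1.25 µM (against 4.94% and 6.36% of all genes), and 1 was lower at 48 h (against 5.68%). The mitochondrial aspartate-glutamate carrier SLC25A13 read 18.24, 21.36 and 15.25 TPM in untreated cells and 8.44, 7.21 and 6.23 TPM at 1.25 µM, a fall of every library below the untreated ones (-1.21, SE 0.239, limma adjusted p = 0.00384). The mitochondrial serine transporter SFXN1 differed by -0.79 (SE 0.228, limma adjusted p = 0.0350) and the glutamate carrier SLC25A22 by 0.85 (SE 0.263, limma adjusted p = 0.0471) at that dose, and both calls were lost on leaving out single libraries, the first for 5 of the 6 (adjusted p up to 0.123) and the second for all 6 (up to 0.134). The glutamate transporter SLC1A3 read 3.79, 8.0 and 6.95 TPM in untreated cells and 2.15, 0.96 and 1.35 TPM at 0.63 µM for 48 h (-1.52, SE 0.450, limma adjusted p = 0.0497), a call lost whichever of the 6 libraries was left out (adjusted p up to 0.180). SLC6A15, a carrier of branched-chain amino acids, had the largest difference of the list at 0.63 µM for 24 h, 1.00 (SE 0.292, limma adjusted p = 0.0845), and SLC25A15, the ornithine carrier, that at 0.32 µM, 0.75 (SE 0.319, limma adjusted p = 0.777).

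Genes whose log2(TPM + 1) tracked SLC1A4 most closely over the 18 libraries, among 8836 genes searched, were ASNS (Pearson's r = 0.898), TRIB3 (0.886) and SNTB1 (0.881). ASNS averaged 41.9 ± 11.8 TPM in untreated cells at 24 h and 38.6 ± 6.35 TPM at 0.32 µM (SD, n = 3). At 0.63 and 1.25 µM it averaged 119 ± 27.9 and 79.1 ± 27.7 TPM (SD, n = 3). Like that of SLC1A4, its mean was lower at the higher of these doses. TRIB3 and SNTB1 went the other way, with means of 60.5 and 72.9 TPM and of 3.8 and 5.1 TPM. The step of SLC1A4 from 0.63 to 1.25 µM was itself not established (-0.31, limma adjusted p = 0.655), and its libraries overlapped. For SLC3A2 the genes that tracked most closely were HMGA2 (r = 0.913), NCDN (0.906) and SRPRB (0.892). HMGA2, a chromatin protein gene, averaged 45.5 ± 3.96 TPM in untreated cells at 24 h, 70.6 ± 11.2 TPM at 0.63 µM and 103 ± 4.20 TPM at 1.25 µM (SD, n = 3). These correlations describe libraries that share groups, library make-up and the scaling of TPM, and they carry no test.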

How the data were processed

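RNA of 18 A375 libraries was made into 3′ end libraries with the QuantSeq FWD kit, per the labels' protocols. The authors deposited 1 table of TPM, 1 column a library. The submitters' processing notes name cutadapt 1.18, STAR 2.7, RSEM 1.3.1 and DESeq2 without saying what each did. The build is not given in the sources used here, nor is the strand setting. Identifiers were matched to symbols (41209 of 60504 gained one) and to GENCODE 29 coordinates. From the deposited TPM, log2(TPM + 1) was computed for genes reaching 1 TPM in 3 or more libraries. One model with a mean for each of the 6 groups was fitted in R 4.3.3 with limma 3.58.1 (trended empirical Bayes). In a simulated 0.63 µM comparison at 24 h over 14936 genes, the test found 21% of genes shifted by 1 and 71% of those shifted by 2 (log2).

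The members and lists were chosen with earlier results of these data known. Genes named from a list were the passing members with the largest differences, at most 4, or the 1 with the largest difference where none passed. Those most alike were the 3 with the highest Pearson's r among genes averaging at least 5 TPM in a group. Over all genes the replicate numbers did not meet the criterion for pairing, so no pairing entered the tests. Other settings tried were pseudocounts of 0.1 and 5 TPM, a minimum of 5 TPM or no filter, quantile and median-of-ratios normalization, no trend, fits of the compared groups alone, the replicate number as a block, and each library left out. Chosen with the results in view were leaving out 2 untreated libraries, leaving out the library of lowest mitochondrial share in each group, and rescaling TPM without 4 transcripts.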

Additional observations from a re-analysis of the deposited data

How the results depend on the processing

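Depth is unknown, so no limit from counting could be given, and 3 libraries a group limit the precision. Of 1315 values of the 72 member differences under alternatives, 1224 kept their direction and their side of the threshold, 27 lost a call, 13 gained one and 51 changed sign, in 19 differences of which none was called; the cause was not tested.

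In fits of the compared groups alone, 0 members were called in every comparison. Called members numbered 0 to 1 at 0.63 µM for 24 h on leaving out 1 library (1 with all), 1 to 3 at 1.25 µM (2), 0 to 1 at 48 h (0), 0 to 0 between 0.32 and 0.63 µM (1) and 0 to 1 between 0.63 and 1.25 µM (1). Without untreated 24 h replicates 2 and 3, the libraries least like their group, 0 were called at 0.63 and 0 at 1.25 µM. That left 1 untreated library, assumed to vary like the other groups, with differences of 1.52 and 1.21 for SLC1A4 and 0.58 for SLC3A2. Without the library of lowest mitochondrial share in each group the counts were 0 at 0.63 µM for 24 h, 1 at 48 h, 0 between 0.32 and 0.63 µM and 0 between 0.63 and 1.25 µM. At 48 h they were 3 with median-of-ratios scaling and 3 with quantile normalization. Between 0.32 and 0.63 µM they were 0 with a pseudocount of 0.1 TPM, 0 without the filter and 0 with a minimum of 5 TPM, and between 0.63 and 1.25 µM 0 without the trend. Over all genes, deviations of same-numbered libraries from their group means correlated by -0.093 to 0.115, short of the 0.1 asked of every pair, and not every library correlated best with its own number, although replicate 3 was often the lowest for the members. With the replicate block 1 member was called at 48 h (SLC7A11, 1.14, adjusted p = 0.0143) and SLC38A2 was called lower at 1.25 µM (-0.54, 0.0274).

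Leaving out 1 library gave log2 differences of -0.13 to 0.15 (SLC7A5), -0.24 to 0.039 (SLC3A2), -0.13 to 0.095 (SLC7A1), -0.094 to 0.092 (SLC1A5) and -0.21 to 0.018 (SLC38A2) at 0.32 µM. It gave -0.0050 to 0.22 (SLC7A1) at 0.63 µM for 24 h, -0.0013 to 0.67 (SLC7A5) and -0.11 to 0.11 (SLC7A1) at 1.25 µM, and -0.094 to 0.037 (SLC38A2) at 48 h. Between 0.63 and 1.25 µM it gave -0.69 to 0.023 (SLC7A11), -0.22 to 0.0014 (SLC7A1), -0.088 to 0.17 (SLC38A1) and -0.20 to 0.57 (SLC6A9). For untreated cells at 48 against 24 h it gave -0.21 to 0.024 (SLC7A1), -0.16 to 0.053 (SLC38A2) and -0.25 to 0.23 (SLC6A9), and for the 48 h minus 24 h effect -0.53 to 0.011 (SLC7A5) and -0.37 to 0.081 (SLC3A2).

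Without the 2 untreated libraries the sign also changed at 0.32 µM for SLC7A5 (-0.21), SLC1A5 (-0.010) and SLC38A2 (0.026), at 1.25 µM for SLC7A5 (-0.0097), between untreated times for SLC38A2 (0.062) and SLC6A9 (0.058), and for SLC3A2 in the 48 h minus 24 h effect (0.14). Without the library of lowest mitochondrial share it changed for SLC7A1 at 0.32 µM (0.098) and between untreated times for SLC7A1 (0.13) and SLC6A9 (0.38). Rescaling without the 4 transcripts gave SLC7A1 0.0055 at 0.32 and -0.047 at 1.25 µM, and SLC38A2 0.0068 and SLC6A9 0.026 between untreated times. Median-of-ratios scaling and quantile normalization gave SLC7A1 0.021 and 0.012 and SLC38A2 0.17 and 0.18 at 48 h, and SLC3A2 0.073 and 0.080 in the 48 h minus 24 h effect. Between untreated times SLC6A9 was 0.0083 with the first and SLC38A2 0.0079 with the second.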
